A study of Mus musculus with 9 samples.

Results

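A pair of guide RNAs against Slc12a9, numbered 11 and 15, were compared directly in the mouse macrophage line J774A.1. The comparison took the 3 libraries labelled sgRNA 15 against the 3 labelled sgRNA 11, which are 6 of the 9 libraries of the study, and tested 13240 of 55487 gene identifiers. Genes were kept where at least 10 counts were present in at least 3 of these 6 libraries. The other 3 libraries carry a safe-targeting control guide and serve here as the reference level. The labels give the safe cells the genotype WT and describe both Slc12a9 lines as a knockdown, whereas the design text of the series speaks of a knockout. All 9 libraries share the line and the medium: cells grown with 10% serum and added glutamine spent 6 h without serum and without glutamine before RNA was taken. The labels name no clone, pool or date of culture. What differs between the guides and what differs between the cell lines made with them therefore cannot be told apart. They also do not say that replicates are separate cultures, so the p-values speak to the spread among these libraries alone, and that spread may be technical.

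Slc12a9 is a relative of the cotransporters that carry chloride together with sodium or potassium, and the study asks how it acts on the osmolarity of lysosomes. The lysosome is kept acidic by the V-ATPase, a proton pump built from a membrane sector and a cytosolic sector, and it digests proteins, lipids and sugars with acid hydrolases. The factors TFEB, TFE3 and MITF switch on lysosomal genes through E-box motifs in their promoters, SREBP2 switches on cholesterol synthesis when membrane cholesterol is low, and macrophages depend on both systems to process engulfed material.

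The 6 libraries held 16405296 to 23521052 counts in genes, and the safe libraries 18817850 to 25613961. Replicates were tight: the biological coefficient of variation was 2.77%. The first principal component carried 60.5% of the variance. The second carried 13.8% and set the guides apart, with the sgRNA 11 libraries at -19.3 to -13.3 and the sgRNA 15 libraries at 16.1 to 19.1. Mitochondrial reads were 1.43 to 1.53% of gene counts with sgRNA 11, 1.59 to 1.61% with sgRNA 15 and 1.63 to 1.76% with safe sgRNA. Csf1r, the receptor for the growth factor of macrophages, was at 1727 to 2648 CPM with the guides. Here CPM is the count scaled to library size with TMM factors. The exons of Csf1r overlap another gene, so its count is uncertain. Of 33 macrophage identity genes, 31 could be tested, and their levels varied widely. Of 34 markers of other cell types, 21 to 24 had no count in a library, and their summed level was 16.1 to 17.9 CPM with sgRNA 11 and 16.7 to 19.5 with sgRNA 15. Of the 7 that could be tested, Ocstamp, a gene of osteoclast fusion, was called. Its level was 0.786, 0.672 and 1.03 CPM with sgRNA 11 and 0.192, 0.209 and 0.241 CPM with sgRNA 15. It passed the count filter only through the sgRNA 11 libraries, where it is high, so the values are a description only. No marker was lower by DESeq2. Leaving out any 1 of the sgRNA 11 libraries takes Ocstamp below the count filter, so those settings do not check its call.

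The targeted gene itself differed between the guides (Slc12a9, ENSMUSG00000037344, minus strand of chromosome 5 from 137314558 to 137333597 in mm10). With safe sgRNA its level was 45.2, 53.9 and 47.3 CPM. The level was 62.1, 66.5 and 66.5 CPM with sgRNA 11 and at 47.9, 49.7 and 51.4 CPM with sgRNA 15. Every sgRNA 11 library was above every other library, and the sgRNA 15 libraries lay within the range of the safe ones. The difference was -0.39 on the log2 scale (sgRNA 15 minus sgRNA 11; SE 0.05; adjusted p = 8.51e-10, edgeR quasi-likelihood test with Benjamini-Hochberg adjustment, n = 3 and 3). Against safe sgRNA, the log2 difference was 0.42 with sgRNA 11 and 0.03 with sgRNA 15. Neither guide thus had a lower count than the control. A count summed over a gene's exons does not show whether the coding sequence is intact, so it does not check the labels, and the guides are named as the labels name them.

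Between the guides, 2376 genes were higher in sgRNA 15 (17.9% of those tested) and 2141 were lower (16.2%), or 34.1% in all, at an adjusted p under 0.05 in the same edgeR test. Most differences were small. Their median size was 0.23 on the log2 scale, and 3813 of the 4517 called genes differed by less than 0.5. At 1 or more on the log2 scale stood 94 genes that were higher (0.71%) and 77 that were lower (0.582%). The 3 libraries of a guide did not overlap those of the other in 43.5% of all tested genes. These shares are the background against which each gene group is set below. The background depends on level. Of 9781 genes with a mean of at least 5 CPM, 2123 were higher and 2196 lower, a larger share. A list of abundant genes can therefore exceed the share of all tested genes without differing from other abundant genes. In the bulk RNA measured here, a change in the share of cells in some state and a change in RNA per cell cannot be told apart.

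**Figure D1:**
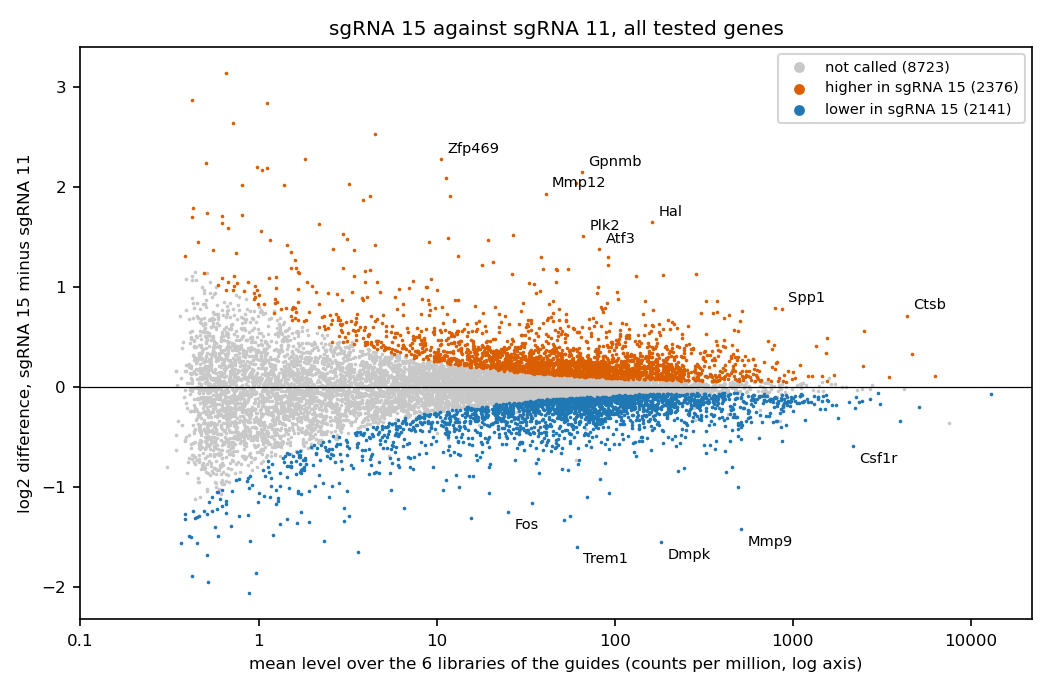
Each point is 1 of 13240 tested genes, placed by its mean level over the 6 libraries of the guides (horizontal, CPM on a log axis) and by its log2 difference between sgRNA 15 and sgRNA 11 (vertical). Orange points were called higher in sgRNA 15 (2376) and blue points lower (2141); most called genes lie close to 0, and a few named genes such as Gpnmb, Mmp12, Trem1 and Mmp9 lie beyond 1 in either direction.

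The genes with the largest excess in sgRNA 15 included Gpnmb, Anpep and Hal. Gpnmb, a membrane glycoprotein of lysosomes and melanosomes, was at 25.6, 25.5 and 26.4 CPM in the safe libraries and at 23.9, 22.7 and 25.7 CPM with sgRNA 11. It was at 107, 108 and 106 CPM with sgRNA 15, where all 3 libraries stood clear of the rest. The difference between the guides was 2.15 on the log2 scale (SE 0.05, edgeR adjusted p = 3.24e-46). Anpep, the membrane aminopeptidase CD13, was at 24.1, 24.2 and 23.3 CPM with sgRNA 11 and 104, 101 and 89.6 CPM with sgRNA 15. Its safe libraries read 27.9, 25.7 and 27.0 CPM, so the sgRNA 15 libraries stood apart from both other groups. Hal, which degrades histidine to ammonia and urocanate, rose with both guides but by unequal amounts. It went from 26.5, 27.4 and 28.5 CPM in the safe libraries to 77.7, 78.5 and 79.8 CPM with sgRNA 11 and to 244, 249 and 246 CPM with sgRNA 15. The 3 groups did not overlap, and the difference between the guides was 1.65 (SE 0.03, edgeR adjusted p = 6.57e-50). Il7r, a cytokine receptor subunit, was at 11.2, 8.73 and 10.8 CPM with sgRNA 11 and 28.3, 28.6 and 29.0 CPM with sgRNA 15, a log2 difference of 1.47. Tenm4, a teneurin adhesion protein, differed by 1.91. C77080 differed by 1.52, and the adaptor gene Bcar3 by 1.49, the last of them uncertain because its exons overlap a gene on the other strand. AU022793 differed by 1.45.

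In a second set of the 12 largest, sgRNA 11 had fallen far below safe sgRNA and sgRNA 15 stood between. Plk2, a stress-induced polo-like kinase, was at 202, 201 and 194 CPM in the safe libraries. It was at 32.1, 35.4 and 36.5 CPM with sgRNA 11 and 99.7, 98.2 and 97.1 CPM with sgRNA 15, and no library of 1 group reached another. Atf3, a stress-induced transcription factor, read 166, 165 and 171 CPM with safe sgRNA, 47.9, 41.5 and 46.4 CPM with sgRNA 11 and 116, 118 and 121 CPM with sgRNA 15. The guides differed by 1.51 for Plk2 (edgeR adjusted p = 4.49e-41) and by 1.38 for Atf3 (edgeR adjusted p = 3.02e-40). Of the 12, Zfp469 (2.28), Mmp12 (1.93), AU022793, Anpep and Bcar3 moved in opposite directions from safe sgRNA, the last pair by little with sgRNA 11 (Anpep -0.17 and 1.87 and Bcar3 -0.33 and 1.16 with sgRNA 11 and sgRNA 15).

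Among the 12 genes with the largest deficit in sgRNA 15, 7 had risen with sgRNA 11 and risen less, or not passed the test, with sgRNA 15. Trem1, an activating receptor that amplifies inflammatory signalling in myeloid cells, was at 28.2, 29.9 and 32.7 CPM with safe sgRNA. It was at 93.3, 90.9 and 92.8 CPM with sgRNA 11 and at 30.2, 31.7 and 29.3 CPM with sgRNA 15. The sgRNA 15 and safe libraries overlapped, whereas those of sgRNA 11 were all about a factor of 3.03 higher (-1.60, SE 0.05, edgeR adjusted p = 1.06e-38). Epha2, an ephrin receptor, was at 24.0, 22.3 and 23.3 CPM, 71.1, 75.2 and 75.8 CPM and 28.0, 30.5 and 29.7 CPM in safe, sgRNA 11 and sgRNA 15 libraries, so that sgRNA 15 lay just above the control. Neurl3, a ubiquitin ligase, rose with both guides and by more with sgRNA 11 (-1.29 between the guides), as did the pro-apoptotic gene Bmf (-1.31) and the class II loading gene H2-DMb2 (-1.21). Fn1, the matrix protein fibronectin, and Il17ra, the IL-17 receptor, shared that order. Fn1 read 26.8, 28.0 and 28.2 CPM, 93.4, 99.3 and 95.8 CPM and 43.7, 46.9 and 43.5 CPM in the 3 groups in that order, a difference between the guides of -1.10. The difference for Il17ra was -1.06.

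Fos and Cx3cr1 differed in the other way, by falling with both guides and further with sgRNA 15. Fos, a component of AP-1, was at 43.2, 49.1 and 48.5 CPM with safe sgRNA, 36.1, 36.5 and 34.9 CPM with sgRNA 11 and 16.2, 15.9 and 12.5 CPM with sgRNA 15. The groups did not overlap, and the guides differed by -1.25 (SE 0.07, edgeR adjusted p = 1.97e-24). Cx3cr1, the fractalkine receptor of monocytes and resident macrophages, went from 66.5, 63.3 and 62.1 CPM to 48.9, 44.7 and 48.8 CPM with sgRNA 11 and to 21.1, 22.4 and 20.3 CPM with sgRNA 15. All sgRNA 15 libraries were below all others, with a difference of -1.16 between the guides (edgeR adjusted p = 2.13e-27).

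**Figure D2:**
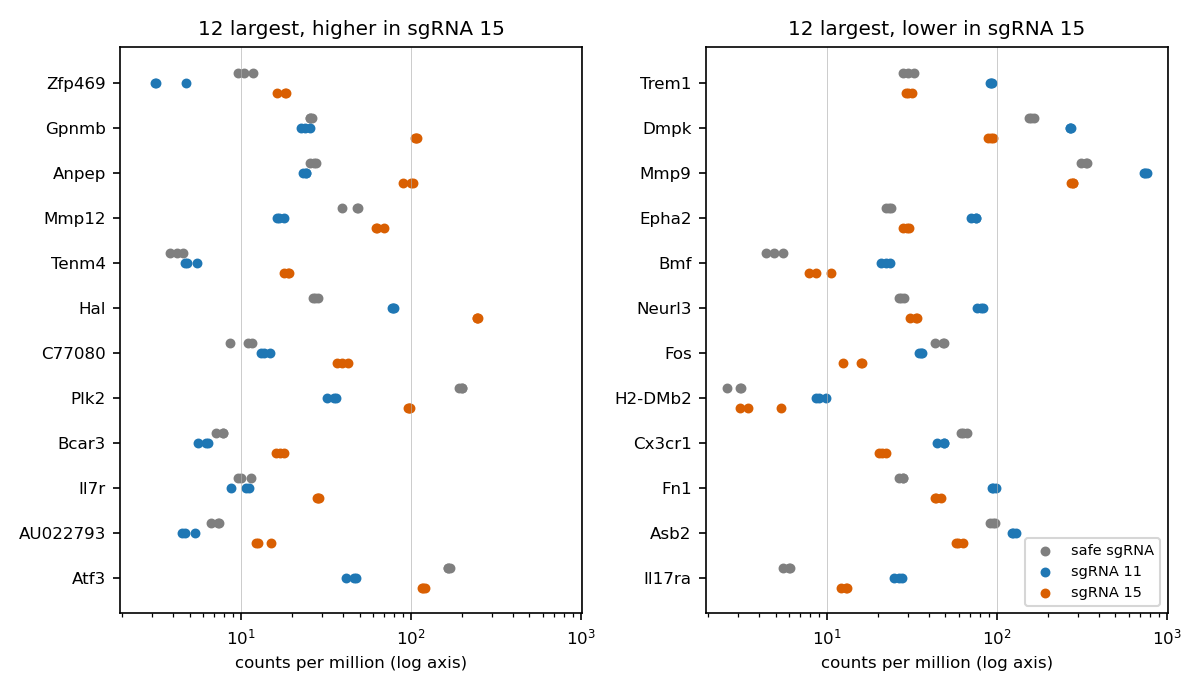
Level of the 12 genes with the largest difference in each direction, in CPM on a log axis; each point is 1 library, grey for safe sgRNA, blue for sgRNA 11 and orange for sgRNA 15. For Gpnmb the 3 orange points at 106 to 108 stand alone, and for Trem1 the 3 blue points at 90.9 to 93.3 stand alone.

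Most subunits of the V-ATPase were higher in sgRNA 15. Of 18 tested subunits and accessory proteins, 15 were higher and 0 were lower, against 17.9% and 16.2% of all genes, and the median difference was 0.28 on the log2 scale, where that of all genes was 0.00. Atp6v1a, the catalytic subunit of the cytosolic sector, was at 241, 232 and 229.9 CPM with safe sgRNA. It was at 284, 278 and 279.7 CPM with sgRNA 11 and at 470.3, 473 and 471 CPM with sgRNA 15. Levels rose with both guides without overlap, and the guides differed by 0.75 (SE 0.02, edgeR adjusted p = 2.55e-37). Atp6v1c1, which joins the sectors of the pump, was at 169.9, 168 and 172 CPM with sgRNA 11, close to the 177, 182 and 173 CPM of the control, and at 264, 263 and 264 CPM with sgRNA 15. The membrane subunit Tcirg1 differed by 0.35 and the proton-carrying ring subunit Atp6v0c by 0.36. Atp6v1h, the regulatory subunit, was below the control with both guides, at -0.66 with sgRNA 11 and -0.23 with sgRNA 15. Against safe sgRNA, 6 subunits rose and 7 fell with sgRNA 11, and 13 rose and 3 fell with sgRNA 15. For all genes, 32.7% rose and 33.7% fell with sgRNA 11, and 30.9% rose and 32.4% fell with sgRNA 15. These contrasts share the safe libraries.

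Most lysosomal hydrolases and their cofactors rose with both guides (40 of 47 with sgRNA 11 and 42 with sgRNA 15), but by unequal amounts. Of the 47, 22 were higher and 10 lower in sgRNA 15, with a median of 0.12, which was 0.08 without sgRNA 11 replicate 3. The median difference from safe sgRNA was 0.37 with sgRNA 11 and 0.47 with sgRNA 15. Gla, which removes galactose from glycolipids, was at 62.6, 61.9 and 67.1 CPM in the safe libraries, 70.6, 70.7 and 68.9 CPM with sgRNA 11 and 135, 138 and 133 CPM with sgRNA 15. The sgRNA 15 libraries stood clear of the rest, with a difference of 0.95 between the guides (SE 0.04, edgeR adjusted p = 6.27e-33). The protease Ctsd read 1384, 1369 and 1359 CPM, 2021, 2016 and 2118 CPM and 2998, 2977 and 3063 CPM in safe, sgRNA 11 and sgRNA 15 libraries, a difference between the guides of 0.55. Ctsb, also a cathepsin, differed by 0.71; exons of both genes overlap another gene in the annotation, so their counts are uncertain. The hydrolases lower in sgRNA 15 included Man2b1, a mannosidase, at 1028, 1034 and 1046 CPM with sgRNA 11 and 799, 805 and 788 CPM with sgRNA 15 against 555, 593 and 578 CPM in the control. Ctsc, the dipeptidyl peptidase that activates granule proteases, fell with both guides and further with sgRNA 15 (-0.34 between the guides). Man2b1, Ctsc and the members named below as motif carriers were picked after their values were seen.

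Lysosomal membrane proteins showed a similar split, with 17 of 37 tested higher in sgRNA 15, 6 lower and a median of 0.10, or 0.06 with GC content and length corrected. Mcoln2, a lysosomal cation channel, had the largest difference (1.04, edgeR adjusted p = 8.73e-24), followed by Mfsd12 (0.63), which carries cysteine into lysosomes and melanosomes and is uncertain by overlap. Npc1, which exports cholesterol from the lysosome, stood at 87.5, 90.4 and 85.9 CPM with sgRNA 11 and 127, 127 and 126 CPM with sgRNA 15 against 73.8, 75.8 and 74.3 CPM in the control. Laptm5 was the member most reduced in sgRNA 15 relative to sgRNA 11, at -0.33. The list of autophagy machinery and receptors also holds Tfeb, Tfe3, Mitf, Flcn, Fnip2, Rragc and Gpnmb. Of its 47 tested genes, 15 were higher and 9 lower, with a median of 0.05. That median was -0.0008 once GC content and length were corrected. Fnip2 and Flcn form the folliculin complex, and Rragc is the GTPase it acts on at the lysosome in amino acid sensing by mTORC1. Fnip2 was at 152, 150.2 and 145 CPM with safe sgRNA, 118, 116 and 119 CPM with sgRNA 11 and 252, 263 and 252 CPM with sgRNA 15. Rragc was at 151, 151 and 147 CPM, 135, 127 and 120.5 CPM and 196, 196 and 197 CPM in the same order. Both lay below the control with sgRNA 11 and above it with sgRNA 15 in every library. The autophagy receptor Sqstm1 rose with both guides and further with sgRNA 15 (0.38 between the guides; uncertain by overlap). Among the factors that drive these genes, picked for their role, Tfeb (-0.33) and Tfe3 (-0.25) were lower in sgRNA 15 and Mitf (0.17) was higher.

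Promoters of these genes were read from RefSeq (GRCm38.p6, the same assembly as mm10), from 250 bases before to 50 after the start, and searched on both strands for CACGTG, the E-box core, which reads the same on either strand. It was present in 4 of 13 V-ATPase promoters (30.8%), 9 of 36 hydrolase promoters (25%) and 8 of 30 lysosomal membrane promoters (26.7%). Of promoters of tested genes 10.4% held it, and of all 27025 promoters 7.24%. Some lists of other functions had like shares, with 5 of 20 for immediate-early and stress-induced factors (25%) and 9 of 40 for ribosome biogenesis (22.5%). For p53 targets and arrest genes it was 4 of 18 (22.2%), whereas interferon-stimulated genes (0 of 27) and phagocytic receptors (0 of 25) had none. The share was thus not particular to lysosomal genes. Carriers from genes that were higher in sgRNA 15 are given as 100 bases each of the coding strand 5′ to 3′ with the motif in capitals, so that the sequence can be set beside the value.
Atp6v1a (chr16:44139338-44139437, minus strand): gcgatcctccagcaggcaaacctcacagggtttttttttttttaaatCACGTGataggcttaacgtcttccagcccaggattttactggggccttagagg
Gla (chrX:134601147-134601246, minus strand): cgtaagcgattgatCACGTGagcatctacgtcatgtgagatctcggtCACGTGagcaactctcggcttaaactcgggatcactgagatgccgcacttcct
Ctsd (chr7:142387873-142387972, minus strand): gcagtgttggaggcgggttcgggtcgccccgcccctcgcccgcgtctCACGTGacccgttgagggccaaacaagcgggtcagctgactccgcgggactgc
Naglu (chr11:101069974-101070073, plus strand): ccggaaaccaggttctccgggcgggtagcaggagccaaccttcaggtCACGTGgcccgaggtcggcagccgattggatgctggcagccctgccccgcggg

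In these stretches the first base of the motif lies 131 bases before the start in Atp6v1a, 98 in Ctsd and 73 in Naglu. Gla holds 2 copies, the nearer one at 194. A second copy in the Ctsd promoter lies outside the stretch shown. The carriers did not all differ between the guides. Atp6v0b holds 2 copies and differed by 0.04, and the hydrolases Glb1 and Arsa hold 1 copy each and differed by 0.01 and -0.08, none of which passed the edgeR test (Atp6v0b and Arsa are uncertain by overlap). Ctsz, which was higher in sgRNA 15, had no match. A match describes letters in a window and is not evidence of binding.

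Cholesterol synthesis was the list with the largest median difference, 0.51 on the log2 scale, and 24 of its 26 tested genes were higher in sgRNA 15 with 0 lower. These genes had fallen with both guides: 26 of 26 with sgRNA 11 (median -1.17) and 25 of 26 with sgRNA 15 (median -0.60). Insig1, which holds the SREBP proteins in the endoplasmic reticulum, was at 149, 159.7 and 161 CPM with safe sgRNA. It was at 57.7, 53.2 and 52.2 CPM with sgRNA 11 and at 101, 107 and 104 CPM with sgRNA 15. The groups did not overlap, and the guides differed by 0.94 (SE 0.04, edgeR adjusted p = 1.61e-30). The demethylation enzymes Cyp51 and Msmo1 differed by 0.69 and 0.64. Srebf2, which encodes SREBP2 itself and was picked for its role, differed by 0.16. Ebp (0.10) and Tm7sf2 (0.07, uncertain by overlap) did not pass the test between the guides.

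The sterol response type motif TCACNCCAC, searched on both strands, was found in 1 of 19 promoters of this list (5.26%) and in 1.01% of promoters of tested genes. The carrier was Hmgcs1, the synthase at the head of the pathway, shown here because it is the single match. Its first base lies 137 bases before the start.
Hmgcs1 (chr13:119690168-119690267, plus strand): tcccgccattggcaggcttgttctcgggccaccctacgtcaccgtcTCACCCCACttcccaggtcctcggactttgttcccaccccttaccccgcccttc

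Hmgcs1 was at 102, 104 and 93.5 CPM with safe sgRNA, 42.1, 40.8 and 40.4 CPM with sgRNA 11 and 63.7, 67.6 and 65.0 CPM with sgRNA 15, without overlap between groups. Its exons overlap a gene on the other strand, so the level is uncertain. Fatty acid synthesis and desaturation followed cholesterol synthesis, with 11 of 15 genes higher in sgRNA 15, 0 lower and a median of 0.31. Scd2, a stearoyl-CoA desaturase, was at 1819.9, 1814 and 1798 CPM with safe sgRNA, 586, 579 and 588 CPM with sgRNA 11 and 1000.3, 1017 and 1004 CPM with sgRNA 15. Its difference of 0.79 between the guides (edgeR adjusted p = 3.96e-42) was the largest of the called genes of this list. Fasn (0.27), Acly (0.26) and the regulator Srebf1 (0.31) were also higher in sgRNA 15.

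Genes that take up, store and release lipid differed as well, with 11 of 26 higher and 4 lower in sgRNA 15. Fabp5, a fatty acid carrier, was at 77.8, 77.2 and 77.3 CPM with safe sgRNA, 24.8, 25.0 and 23.01 CPM with sgRNA 11 and 58.1, 53.2 and 53.9 CPM with sgRNA 15. It had fallen with both guides, and by more with sgRNA 11 (1.18 between the guides, edgeR adjusted p = 9.49e-30). The uptake gene Slc27a1 (0.74), the lipid droplet coat gene Plin2 (0.42) and the acyl-CoA ligase Acsl3 (0.40) were higher in sgRNA 15. Of 15 genes that answer to LXR or export cholesterol, 7 were higher and 2 lower. Abcg1, which exports cholesterol, differed by 0.39, and Soat1, which esterifies it, by 0.41. Nceh1, which releases cholesterol from its esters in macrophages, differed by 1.13 and is described with the genes that moved apart from safe sgRNA.

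**Figure D3:**
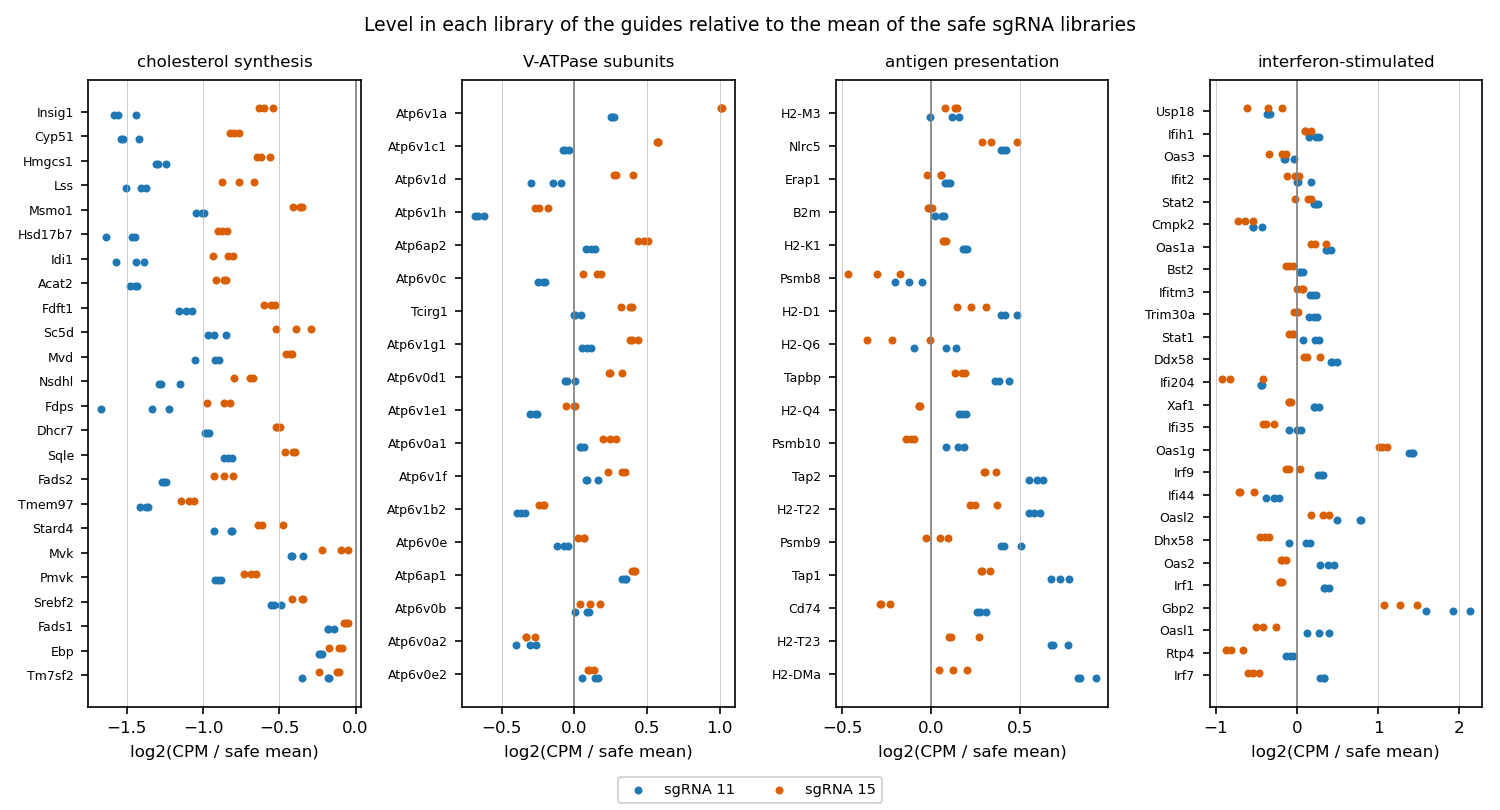
Level of members with a mean of at least 5 CPM in 4 gene lists (cholesterol synthesis, V-ATPase, antigen presentation, interferon-stimulated genes), as log2 of its CPM over the mean of the 3 safe libraries (horizontal); each point is 1 library, blue for sgRNA 11 and orange for sgRNA 15, and the grey line marks the safe mean. In cholesterol synthesis both colours lie left of the line with blue farther left, in the V-ATPase orange lies right of blue for most subunits, and in the other 2 lists blue lies right of orange for most genes.

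Of 31 macrophage identity genes tested, 17 were lower and 5 higher, with a median of -0.19. Csf1r read 1755, 1792 and 1795 CPM with safe sgRNA, 2599, 2604 and 2648 CPM with sgRNA 11 and 1742, 1732 and 1727 CPM with sgRNA 15. The sgRNA 11 libraries stood above both other groups (-0.59 between the guides, edgeR adjusted p = 2.55e-36; uncertain by overlap). C1qa, a chain of complement C1q, differed by -0.51, and the Fc receptor Fcgr1 by -0.55. In the other direction were Mpeg1, a pore-forming protein of phagosomes (0.48), and Cd68, a lysosomal glycoprotein of macrophages (0.56).

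Antigen presentation had 15 of 22 tested genes lower in sgRNA 15 and 0 higher, with a median of -0.23. Cd74, the class II invariant chain, was at 359, 364 and 367 CPM with safe sgRNA, 435, 439 and 449.8 CPM with sgRNA 11 and 310.0, 299 and 298 CPM with sgRNA 15. Each group was apart from the others, with sgRNA 15 the lowest. H2-DMa, which loads peptide on class II molecules, differed by -0.73 and is uncertain by overlap. The peptide transporter Tap1 (-0.43) and the immunoproteasome subunit Psmb9 (-0.40) were lower in sgRNA 15 too. B2m, the class I light chain, differed by no more than -0.06, at 424, 427 and 414 CPM with sgRNA 11 and 408, 404 and 401 CPM with sgRNA 15.

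Interferon-stimulated genes had the lowest median of all lists, -0.33, with 22 of 36 lower in sgRNA 15 and 1 higher. Against safe sgRNA, 18 rose and 9 fell with sgRNA 11, while 5 rose and 18 fell with sgRNA 15. Irf7, the factor that amplifies the interferon response, was at 39.3, 40.2 and 37.5 CPM with safe sgRNA. It was at 49.1, 49.2 and 47.6 CPM with sgRNA 11 and at 26.8, 25.6 and 28.3 CPM with sgRNA 15. The control lay between the guides without overlap (-0.86 between the guides, SE 0.05, edgeR adjusted p = 9.64e-22). Irf1 (-0.56), Irf9 (-0.35) and the oligoadenylate synthetase Oas1g (-0.35) were also lower in sgRNA 15. The single member that was higher was Rsad2, an antiviral enzyme, at 1.66, 2.18 and 1.89 CPM with sgRNA 11 and 3.12, 2.97 and 2.29 CPM with sgRNA 15, and 0 members were higher without sgRNA 11 replicate 1, sgRNA 15 replicate 1 or sgRNA 15 replicate 2. The well-known members Isg15 (0.01) and Ifit2 (-0.11) did not pass the test.

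Of 33 phagocytic, scavenger and pattern receptors, 14 were lower in sgRNA 15 and 7 higher, with a median of -0.11. Below Trem1, the list held Tlr8, a receptor for single-stranded RNA (-0.50). Fcgr2b, the inhibitory Fc receptor, was the reverse case, at 147, 147 and 141 CPM with safe sgRNA, 376, 374 and 379.7 CPM with sgRNA 11 and 553, 553 and 567 CPM with sgRNA 15. Of 25 integrin and adhesion genes, 16 were lower and 5 higher, with a median of -0.25. Itgal, the alpha chain of LFA-1, rose from 152, 158 and 168 CPM to 552, 534 and 534 CPM with sgRNA 11 and to 301, 303 and 296 CPM with sgRNA 15. All groups were apart, and the guides differed by -0.85 (edgeR adjusted p = 4.90e-39). Itgam, the alpha chain of Mac-1 (-0.59, uncertain by overlap), and Itgb5 (-0.50) were lower in sgRNA 15. Alcam was higher (0.52).

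Secreted proteins diverged in both directions. Chemokines and cytokines had 9 of 21 genes higher and 5 lower in sgRNA 15. In this list 2 were lower without sgRNA 11 replicate 3, and 3 by DESeq2 or without sgRNA 15 replicate 2. Ccl3, which attracts macrophages and T cells, was at 126, 123 and 118 CPM with safe sgRNA, 29.2, 27.5 and 29.3 CPM with sgRNA 11 and 64.6, 63.1 and 67.5 CPM with sgRNA 15. Ccl4, its neighbour in function, followed with 107, 109 and 101 CPM, 24.4, 20.4 and 22.2 CPM and 57.2, 53.5 and 55.4 CPM. Both fell with each guide and further with sgRNA 11, and the guides differed by 1.18 and 1.30 (edgeR adjusted p = 9.81e-32 and 4.83e-31). The monocyte attractant Ccl2 behaved alike (0.86), whereas Cxcl14 was lower in sgRNA 15 (-0.93). The matrix and secreted factor list had 13 of 23 genes higher and 5 lower, and it held Fn1, the gelatinase gene Mmp9 and the elastase gene Mmp12. Spp1, which encodes osteopontin, stood at 653, 628 and 646 CPM with sgRNA 11 and 1129, 1097 and 1087 CPM with sgRNA 15 against 1021, 1008 and 981 CPM in the control (uncertain by overlap). Igf1, a growth factor, was at 138, 137 and 140.3 CPM with sgRNA 11 and at 218, 215 and 212 CPM with sgRNA 15, the latter near the 213, 201 and 207 CPM of the control.

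Signalling and stress genes differed member by member. Among 25 immediate-early and stress-induced factors, 10 were lower and 4 higher in sgRNA 15, or 9 and 7 with GC content and length corrected. Besides Fos and Atf3, Btg2, an antiproliferative gene, differed by -0.58. Of 17 feedback genes of the ERK pathway and ETS factors, 8 were lower and 3 higher. Dusp6, a phosphatase of ERK, was at 122, 113 and 112 CPM with safe sgRNA, 277, 272 and 283 CPM with sgRNA 11 and 187, 190.3 and 187 CPM with sgRNA 15. It rose with both guides and by less with sgRNA 15 (-0.56 between the guides), whereas Dusp4 had fallen with both and was higher in sgRNA 15 (0.43). Of 25 targets of p53 and arrest genes, 14 were lower and 6 higher, with a median of -0.22. Cdkn1a, the p21 inhibitor of cyclin-dependent kinases, was at 127, 124 and 126 CPM with safe sgRNA, 212, 218 and 219.6 CPM with sgRNA 11 and 158, 157 and 163 CPM with sgRNA 15. Phlda3 (-0.52) and Sesn1 (-0.63) were lower as well, and Plk2 was the member with the largest excess. Of 23 NF-kB subunits and feedback regulators, 6 were higher and 5 lower, with 3 higher without sgRNA 15 replicate 2. In this list 3 were lower by DESeq2, with GC content and length corrected or without sgRNA 15 replicate 1.

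The amino acid stress genes controlled by ATF4 rose with both guides in most cases (36 of 39 with sgRNA 11 and 38 with sgRNA 15). Between the guides, 15 were higher and 4 lower in sgRNA 15, with 2 lower by DESeq2 or without sgRNA 11 replicate 3 or sgRNA 15 replicate 1. Cth, which makes cysteine, was at 36.4, 37.4 and 35.6 CPM with safe sgRNA, 126, 128 and 129 CPM with sgRNA 11 and 187, 185 and 185 CPM with sgRNA 15. Atf4 itself differed by 0.20 and Mthfd2, of mitochondrial folate metabolism, by 0.22. Trib3, a pseudokinase induced by ATF4, did not pass between the guides, with 2.95 against safe sgRNA for sgRNA 11 and 2.89 for sgRNA 15. Of 32 endoplasmic reticulum genes, 12 were lower and 6 higher, or 13 and 2 with GC content and length corrected. The chaperone gene Calr was lower (-0.15). Of 28 NRF2 and oxidative stress genes, 13 were higher and 4 lower. The ferritin heavy chain gene Fth1 was at 4121, 4074 and 4234 CPM with sgRNA 11 and 5230.3, 5222 and 5139 CPM with sgRNA 15, and the peroxidase gene Gpx1 differed by -0.27. Of 18 metallothionein, zinc and iron genes, 9 were higher and 2 lower, with the iron exporter Slc40a1 at 0.51 and the transferrin receptor Tfrc at 0.42. In this list 1 was lower by DESeq2, with scaling by library size alone or with GC content and length corrected. The same held without sgRNA 11 replicate 1 or 2 or sgRNA 15 replicate 1 or 2. Of 26 heat shock genes, 13 were higher and 3 lower, or 7 and 1 with GC content and length corrected. With that correction the share called in either direction was near that of all genes, of which 1968 were higher and 2013 lower. In this list 1 was lower by DESeq2 or without sgRNA 11 replicate 2 or sgRNA 15 replicate 1. The mitochondrial chaperonin Hspd1 differed by 0.41 and the cytosolic Hsp90aa1 by 0.40.

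Cytosolic ribosomal proteins were lower in sgRNA 15 in 62 of 80 cases and higher in 0, but by little: the median was -0.15. Rpsa, which binds laminin as well as the small subunit, was at 3256, 3239 and 3412 CPM with sgRNA 11 and 2928, 2961 and 2893 CPM with sgRNA 15, and its safe libraries read 2641, 2731 and 2716 CPM. Every sgRNA 11 library was above every sgRNA 15 library, and both groups were above the control. Ribosome biogenesis genes went the other way, with 24 of 48 higher and 5 lower and a median of 0.10. Ncl, the gene of nucleolin, fell from 1887, 1860.4 and 1775 CPM to 729, 758 and 738 CPM with sgRNA 11 and to 894, 876 and 877 CPM with sgRNA 15. Of 42 genes of DNA replication, 12 were lower and 2 higher, with Mcm5, a helicase subunit, at -0.17. That is 33.3% called, near the 34.1% of all tested genes, and the median was -0.02. Of 41 genes of G2 and mitosis, 15 were higher and 3 lower, with Hmmr at 0.29, and 1 was lower without sgRNA 15 replicate 2. The counts were 9 and 3 with GC content and length corrected. That share called was near the share of all genes under the same correction. Nuclear-encoded respiratory subunits were called in 19.7% of 71 cases, below the background. They stood at 3 higher and 11 lower, and at 11 higher and 2 lower with that correction, so no direction is given for them. Of 13 mitochondrially encoded genes, 5 were higher and 0 lower (38.5% called, near the background). With the correction 0 were higher and 1 lower, and 2 were higher without sgRNA 15 replicate 3.

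**Figure D4:**
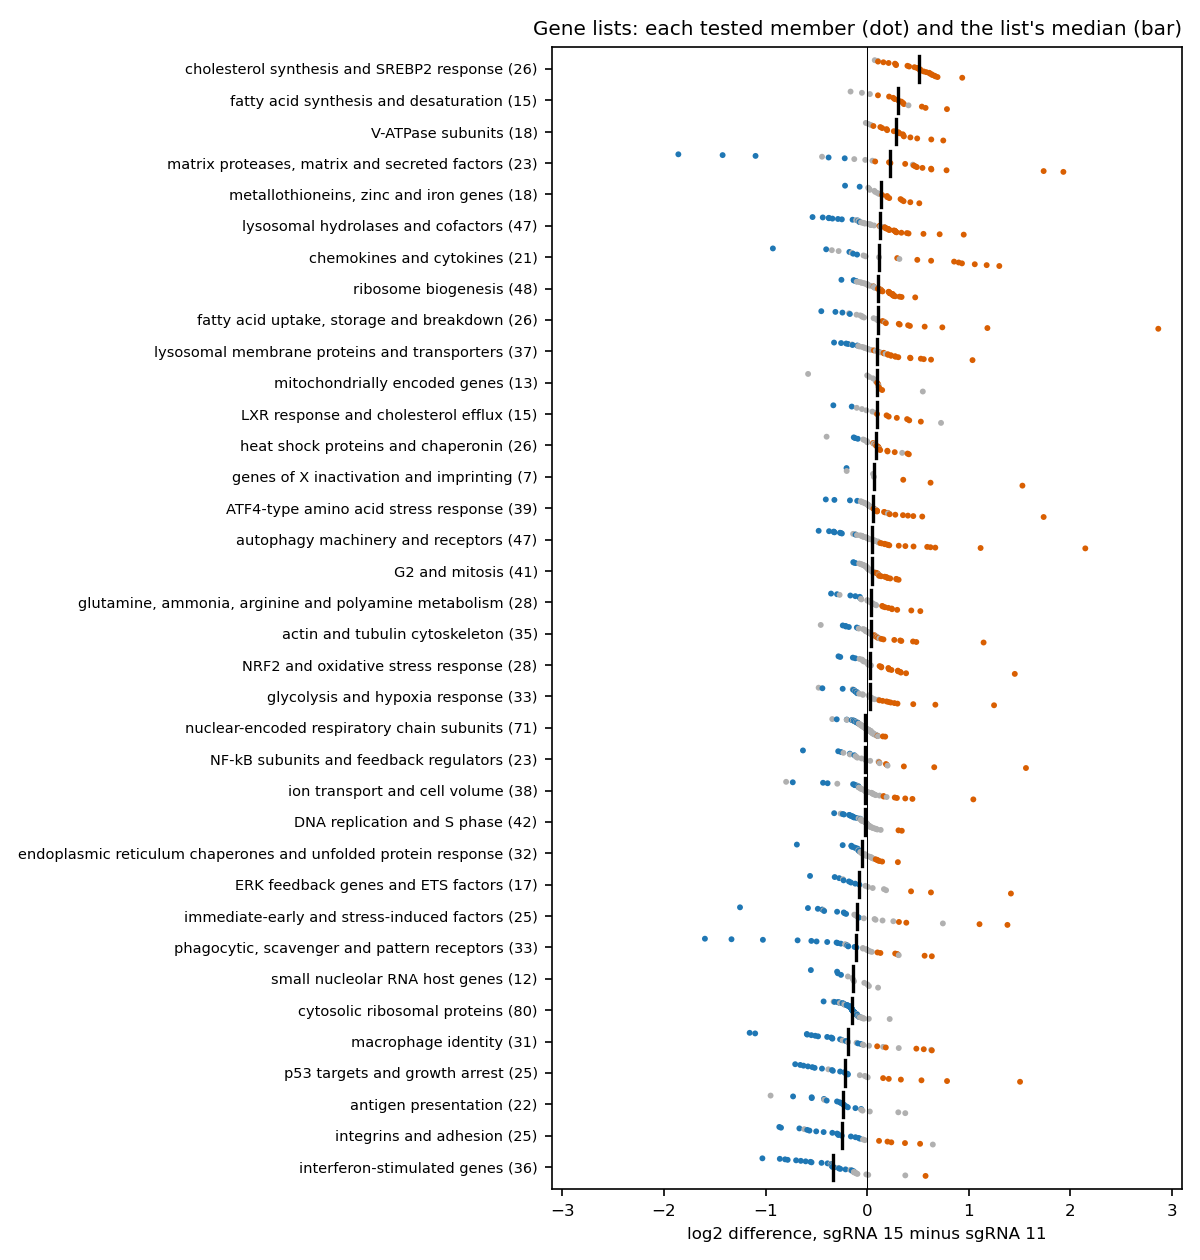
Log2 difference between sgRNA 15 and sgRNA 11 (horizontal) for every tested member of 36 gene lists (rows, with the number tested); orange dots were called higher in sgRNA 15, blue dots lower and grey dots neither, and black bars are medians. Medians run from 0.51 for cholesterol synthesis to -0.33 for interferon-stimulated genes.

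From safe sgRNA, 250 genes moved in opposite directions with the guides, each past the threshold in both edgeR contrasts. Up with sgRNA 11 and down with sgRNA 15 were 114 genes (0.861% of those tested), and down with sgRNA 11 and up with sgRNA 15 were 136 (1.03%). Both contrasts use the same safe libraries, and the choice by opposite sign fixes the direction between the guides, so values are given as a description with no test. The movements were small: the median size was 0.18 with sgRNA 11 and 0.16 with sgRNA 15 in the first set, and 0.24 and 0.21 in the second. Both movements were at least 0.25 in 42 genes and at least 0.5 in 11.

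Dmpk, a kinase of the myotonic dystrophy locus, had the widest split of the first set. It was at 158, 155 and 166 CPM with safe sgRNA, 269, 271 and 276 CPM with sgRNA 11 and 92.6, 95.7 and 89.4 CPM with sgRNA 15, or 0.77 and -0.79 on the log2 scale against the control. Mmp9 was at 315, 334 and 342 CPM with safe sgRNA, 741, 745 and 763 CPM with sgRNA 11 and 273, 283 and 282 CPM with sgRNA 15, an unequal split of 1.18 and -0.24. Asb2, a ubiquitin ligase subunit that targets filamins (0.42 and -0.64), Fgd2, an activator of Cdc42 (0.42 and -0.50), and Itga8, an integrin alpha chain (0.41 and -0.59), were of similar size in each direction. Irf7 stood at 0.32 and -0.54, Oasl1 at 0.25 and -0.40, Cd74 at 0.28 and -0.26, Tmem176a at 0.46 and -0.32, Sfxn5 at 0.45 and -0.27, and the zinc finger gene Zfp608 at 0.25 and -0.24. From the gene lists, this set also held the complement genes C1qa and C1qb, the Fc receptor gene Fcgr1 and the macrophage transcription factor gene Spi1. Further members were the phagosomal metal transporter gene Slc11a1, the proteasome gene Psmb10, the interferon factor gene Irf1, Dusp1, Klf10 and Taldo1. Atg9a (uncertain by overlap) and the ribosomal protein genes Rpl7a, Rpl8, Rpl15 and Rps26 were in it too. Spi1 stood at 0.09 with sgRNA 11 and -0.12 with sgRNA 15.

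In the second set, Zfp469, a zinc finger gene, fell to 3.14, 4.76 and 3.19 CPM with sgRNA 11 and rose to 16.3, 18.5 and 18.1 CPM with sgRNA 15, from 10.4, 9.58 and 11.8 CPM in the control. Mmp12, the macrophage elastase, was at 48.0, 48.7 and 39.3 CPM with safe sgRNA, 17.9, 16.7 and 16.3 CPM with sgRNA 11 and 62.4, 63.0 and 69.6 CPM with sgRNA 15. In both genes the control lay between the guides in every library. Nceh1 was at 268, 268 and 268 CPM, 181, 180.1 and 177 CPM and 389, 388 and 398 CPM in safe, sgRNA 11 and sgRNA 15 libraries. Mcoln2 was at 29.7, 33.1 and 28.4 CPM, 22.1, 21.4 and 21.4 CPM and 43.7, 45.2 and 44.3 CPM in the same order. These were near-symmetric splits, at -0.58 and 0.55 for Nceh1 and at -0.49 and 0.55 for Mcoln2. Osbpl8, an oxysterol-binding lipid transfer protein, stood at -0.43 and 0.43, Disp3 at -0.63 and 0.59, the adhesion gene Nrcam at -0.38 and 0.75, Uap1l1 at -0.36 and 0.41, the orphan receptor gene Gpr162 at -0.44 and 0.42, and AU022793 at -0.56 and 0.89. From the lists, the set held the lysosomal genes Cd68, Ctsz, Mfsd12, Atp6v0c and Atp6v1d, the folliculin genes Fnip2 and Flcn with Rragc, and the lipid genes Abcg1, Acsl3 and Slc27a1. It also held Spp1, Tlr13, Nfe2l2, Klf6, Egr1, Got1, Pfkp and Edem1. Fnip2 stood at -0.34 with sgRNA 11 and 0.78 with sgRNA 15.

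**Figure D5:**
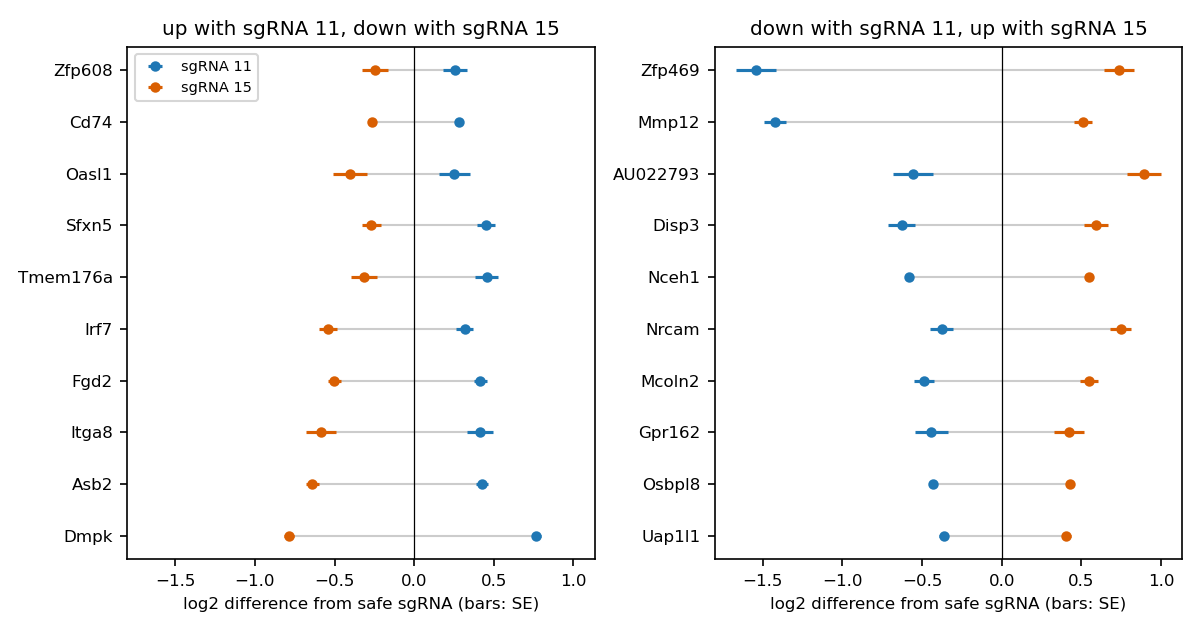
The 10 genes of each kind with the largest smaller movement among genes that moved in opposite directions, as log2 difference from safe sgRNA (horizontal); blue is sgRNA 11, orange is sgRNA 15, bars are standard errors and each row is 1 gene. Dmpk lies at 0.77 and -0.79, and Zfp469 at -1.54 and 0.74.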

How the data were processed

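RNA-seq libraries of J774A.1 cells (3 safe sgRNA, 3 sgRNA 11, 3 sgRNA 15) were grouped by their labels. The authors deposited raw counts per Ensembl gene, one file per sample; the submitters' processing notes name STAR, HTSeq and mm10, with no version, and the strand setting is not stated there. The HTSeq summary rows were left out, and 79.3 to 80.7% of reads lay in genes. Of 55487 identifiers, 55227 received a symbol from the GENCODE M21 annotation. Genes with at least 10 counts in at least 3 of the 6 guide libraries (13240, holding 99.9% of counts) were tested.

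edgeR 4.0.16 in R 4.3.3 was run on the counts of all 9 libraries, with TMM scaling (factors 0.969 to 1.02) and robust quasi-likelihood fits with 6 residual degrees of freedom. Contrasts were sgRNA 15 minus sgRNA 11 and each guide minus safe sgRNA, with Benjamini-Hochberg adjustment over all tested genes and a threshold of 0.05. A gene was opposite when both contrasts with safe sgRNA passed with different signs. The procedure was also run on simulated counts. Far fewer genes differed between the guides there than were called here, so no conclusion is drawn from that run. Alternatives were DESeq2 1.42.0, limma 3.58.1 (voom), other scalings and filters, a fit to 6 libraries, a replicate block, a correction for GC content and length, a minimum change and leaving out each library.

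The genes named by rule are Slc12a9 and the 12 largest differences each way (adjusted p under 0.05, mean of at least 5 CPM, no predicted models). The rule adds the 10 opposite genes each way with the largest smaller movement, up to 4 per list with the smallest p, and opposite list members. All other genes are list members picked after their values were seen, including those picked for their role (Tfeb, Tfe3, Mitf and Srebf2). The comparison, its members and the 37 gene lists were chosen with earlier results of these data known, so lists are described by counts and medians with no test. Genes that share at least 10% of their exon length with another gene, on the same or the other strand, are uncertain (480 of those called). The strand setting of the counts is not given. Promoters came from RefSeq tables. Values of a few list members are not reported here, although the list counts include them.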

Additional observations from a re-analysis of the deposited data

How the results depend on the processing

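The counts of 2376 higher and 2141 lower genes stayed within 1.5 times under DESeq2 (2031 and 1767), voom, other scalings, other filters, the 6-library fit and the correction for GC content and length (1968 and 2013). Leaving out each library gave 2054 to 2406 higher and 1770 to 2176 lower genes, 90 to 113 that were up with sgRNA 11 and down with sgRNA 15, and 111 to 136 of the reverse. Requiring a change of more than 1 on the log2 scale left 29 higher and 6 lower. Replicate numbers did not pair the samples (correlations of deviations -0.008, 0.047 and 0.021), and a replicate block gave 2464 and 2251 genes, with 131 and 146 opposite. Of the 193 single genes chosen by rule, mt-Nd5 reversed from 0.11 to -0.0026 with GC content and length corrected, and the cause was not tested. Counting each gene in each setting, a gene lost its call in 18 cases, gained one in 1 and kept its outcome in 3635. Slc12a9 passed under each setting in which it was tested for any change, with log2 differences of -0.42 to -0.32; it was not assessed singly against a minimum change. The signs of the medians of the NF-kB, autophagy and respiratory chain lists each changed in 1 setting, and that of the markers of other cell types in 3 (-0.10 to 0.16). With 3 libraries a group and a spread this narrow, small differences pass the test, and whether they belong to the guides or to the lines cannot be told apart. Counts of a few CPM carry more counting error than those of abundant genes.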

Other observations

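The actin and cytoskeleton list had 12 of 35 genes higher and 6 lower in sgRNA 15. Tmsb4x, which sequesters actin monomers, differed by -0.21, Tmsb10 by 0.33 and the intermediate filament gene Vim by 0.34. In glutamine, ammonia, arginine and polyamine metabolism, 9 of 28 were higher and 7 lower. In this list 4 were lower by DESeq2 or without sgRNA 11 replicate 3 or sgRNA 15 replicate 2. Glul, which makes glutamine, was at 86.9, 83.9 and 86.3 CPM with sgRNA 11 and 67.1, 72.3 and 69.9 CPM with sgRNA 15 against 72.4, 74.0 and 73.9 CPM with safe sgRNA. Ion transport genes had 7 of 38 higher and 9 lower. That is 42.1% called, against 34.1% of all tested genes, and the median was -0.02. The relative of the targeted gene Slc12a5 stood at -0.73 and the chloride channel gene Clic4 at 0.16. Glycolysis and hypoxia genes had 10 of 33 higher and 7 lower, with Ndrg1 at 0.67. Hosts of small nucleolar RNAs had 4 of 12 lower and 0 higher, with Gas5 at -0.29. That is 33.3% called, near the 34.1% of all tested genes. In this list 2 were lower by DESeq2 or without sgRNA 11 replicate 2 or 3 or sgRNA 15 replicate 2.

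By chromosome, the share of tested genes called ran from 27.8% on chromosome 4 to 39.8% on chromosome 3. Chromosome 7 held 112 higher and 234 lower genes, and chromosome 3 held 172 higher and 86 lower.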
